A study of Mus musculus with 6 samples.

Results

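The 8 genes described here encode the surfactant proteins SP-A (Sftpa1), SP-B (Sftpb), SP-C (Sftpc) and SP-D (Sftpd) and 4 proteins that process surfactant or build its storage organelle: Napsa, Abca3, Lamp3 and Lpcat1. They were taken by symbol from a table of 55487 genes, and all 8 were found and passed the filter on low counts. The libraries came from mouse lung tumour cells, sorted as positive for GFP and negative for the leukocyte protein CD45 at 11 weeks after tumours were started. The tumours were of the KP model, a genetically engineered mouse lung adenocarcinoma, and that background was shared by both groups. The control group carried sgNeo, a guide RNA that leaves Lkb1 wild type, and the other carried sgLkb1, which targets Lkb1. Lkb1, listed as Stk11, encodes a kinase upstream of AMPK and the SIK family. Each group had 3 libraries. The labels do not give the promoter behind GFP or Cre, the age of the mice, or whether each library came from its own animal, so the spread between libraries may be technical.

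Library totals ranged from 26007426 to 28986473 counts in sgNeo and from 29613629 to 41729248 in sgLkb1. Mitochondrial genes took 3.00 to 8.25% of counts in sgNeo and 2.75 to 5.20% in sgLkb1. Stk11 transcript was present in every library, at 33.4 to 82.7 CPM (counts relative to library size, scaled by the trimmed mean of M-values, TMM) in sgNeo and 23.5 to 25.6 CPM in sgLkb1 (log2 fold change -1.31 with an SE of 0.30, adjusted p = 0.023 by edgeR). That call was lost in 5 of the 6 fits that left out a library (all but the one without sgNeo replicate 2), with adjusted p up to 0.071. The transcript level does not show whether the protein was lost.

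Pulmonary surfactant is a film of phospholipid and protein that lowers surface tension in the alveolus, and it is made by alveolar type 2 cells. SP-B and SP-C are small hydrophobic proteins that spread the lipid film, whereas SP-A and SP-D are soluble collectins that bind microbes and regulate the surfactant pool. Lipid, SP-B and SP-C are stored in lamellar bodies, lysosome-related organelles whose lipid is imported by the transporter ABCA3. KP tumours are known to arise largely from type 2 cells, and the surfactant genes are standard markers of that identity.

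The genes lie on 6 chromosomes in the GRCm38 build. Sftpa1 (chr14:41131782-41136452) and Sftpd (chr14:41172214-41185149) stand 35.8 kb apart in the collectin cluster, and Sftpc (chr14:70520949-70524081) lies farther along the same chromosome. Sftpb is at chr6:72304610-72314371, Napsa at chr7:44572380-44586862, Lpcat1 at chr13:73467197-73516422, Lamp3 at chr16:19653378-19706375 and Abca3 at chr17:24351950-24410201. Exons of Napsa overlap those of Gm15396, and exons of Abca3 overlap those of D330041H03Rik, each on the other strand. Counts of Napsa, Abca3 and Lamp3 were not whole numbers in any library, counting any fraction. RSEM gives such values where reads match more than 1 place, and how much of each count they make up was not measured.

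Promoter sequence from RefSeq (GRCm38.p6) was matched for 5 of the 8 genes: Sftpa1, Sftpb, Abca3, Lamp3 and Lpcat1. It was not matched for Sftpc, Sftpd and Napsa. The 250 bases before the RefSeq start were searched on both strands for CTCAAG, a core sequence bound by NKX2-1, the factor that defines lung epithelium, and for TGTTTAC, bound by forkhead factors of the FOXA group. They were also searched for TTNNGCAA, bound by C/EBP proteins, for AGATAA, bound by factors of the GATA family, for the ETS core CCGGAA, and for TGACGTCA, bound by CREB. All matches found were on the gene's strand, and none overlapped another. The 3 windows that held a match to the first 2 motifs are shown because NKX2-1 and FOXA factors are the classical regulators of surfactant genes. They are printed 5′ to 3′ on the gene's strand, without bases that either RefSeq or GENCODE places in the transcript, and capitals mark the matches. They cover chr6:72304360-72304609 (plus strand), chr14:41131538-41131781 (plus strand) and chr16:19706376-19706615 (minus strand).
Sftpb: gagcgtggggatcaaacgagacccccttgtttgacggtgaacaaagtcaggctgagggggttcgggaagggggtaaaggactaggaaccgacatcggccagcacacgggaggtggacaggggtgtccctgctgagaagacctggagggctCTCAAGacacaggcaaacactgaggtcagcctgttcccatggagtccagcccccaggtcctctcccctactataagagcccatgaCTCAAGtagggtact
Sftpa1: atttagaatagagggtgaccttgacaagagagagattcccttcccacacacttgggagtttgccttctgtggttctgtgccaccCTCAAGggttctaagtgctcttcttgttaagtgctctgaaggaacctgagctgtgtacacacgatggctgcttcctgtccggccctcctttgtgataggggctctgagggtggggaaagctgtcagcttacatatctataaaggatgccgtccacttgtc
Lamp3: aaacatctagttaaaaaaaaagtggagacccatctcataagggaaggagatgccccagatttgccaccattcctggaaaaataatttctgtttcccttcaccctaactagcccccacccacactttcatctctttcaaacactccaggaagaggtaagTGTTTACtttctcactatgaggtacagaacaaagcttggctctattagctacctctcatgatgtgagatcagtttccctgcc
CTCAAG stood 100 and 15 bases before the start of Sftpb and 166 bases before that of Sftpa1, and TGTTTAC stood 92 bases before that of Lamp3. CTCAAG occurred in 13.3% and TGTTTAC in 3.17% of all 32851 windows of this length. CCGGAA was found in the Abca3 window, 156 bases before the start, and in 12.03% of all windows. The C/EBP, GATA and CREB motifs were in none of the 5 windows, against 9.56%, 9.99% and 1.55% of all windows. A match describes the letters only.

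The windows fell into unlike kinds. Sftpa1 and Sftpb had TATAA within the last 40 bases before the start, as 4.23% of all windows did. Abca3 and Lpcat1 had no TATAA there and were rich in G and C, with 67.6% and 60.8% against a median of 52.4%, and held 21 and 16 CpG pairs against a median of 6. Lamp3 held 0 CpG pairs and 42.4% G and C. All 5 genes fell in sgLkb1, as described next.

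Sftpc and Sftpb, the hydrophobic surfactant proteins, were lower in sgLkb1 by unequal amounts. Sftpc was at 82967, 69548 and 75279 CPM in sgNeo replicates 1, 2 and 3, and at 8885, 5939 and 11248 CPM in sgLkb1 replicates 1, 2 and 3. The groups lay far apart, and sgLkb1 replicate 3 was the highest of its group. The log2 fold change was -3.13 (SE 0.31, edgeR adjusted p = 0.000885), an 8.74-fold lower level, and Sftpc moved from rank 1 of all genes by CPM in sgNeo to rank 2 in sgLkb1. Sftpb was at 6276, 4910 and 6286 CPM in sgNeo and at 2311, 1745 and 2603 CPM in sgLkb1. The groups did not overlap, and replicate 2 was the lowest of each. Its log2 fold change was -1.39 (SE 0.23, edgeR adjusted p = 0.00616), or 2.62-fold lower, the smallest fall of the 8. In bulk libraries, fewer cells that make a transcript and less transcript per cell cannot be told apart.

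Both surfactant collectins were lower as well. Sftpa1 was at 43267, 37796 and 38531 CPM in sgNeo and at 4511, 2892 and 3764 CPM in sgLkb1. The difference was many times the spread of either group, and the log2 fold change was -3.42 with an SE of 0.27 (adjusted p = 0.000465 by edgeR). At 10.7-fold this was the greatest fall of the 8, and the gene went from rank 2 to rank 11 by CPM. Sftpd was at 6705, 5581 and 6702 CPM in sgNeo and at 1251, 957 and 1356 CPM in sgLkb1 (log2 fold change -2.41 with an SE of 0.22, adjusted p = 0.000754 by edgeR). Its 5.33-fold fall was smaller than that of Sftpa1, its neighbour in the cluster.

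Napsa encodes napsin A, an aspartic protease that trims the SP-B precursor. It was at 1648, 1272 and 1703 CPM in sgNeo and at 429, 231 and 439 CPM in sgLkb1 (log2 fold change -2.07 with an SE of 0.28, adjusted p = 0.00283 by edgeR). Its groups were separate, with replicate 2 lowest in each.

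Abca3, which loads phospholipid into lamellar bodies, varied little in sgNeo, at 686, 641 and 654 CPM. In sgLkb1 it was at 151, 87.9 and 159 CPM (log2 fold change -2.32 with an SE of 0.24, adjusted p = 0.0011 by edgeR). Lamp3, a glycoprotein of the lamellar body membrane also known as DC-LAMP, was at 1866, 1367 and 1221 CPM in sgNeo and at 493, 142 and 243 CPM in sgLkb1. It was the most variable of the 8, with a 3.47-fold range among sgLkb1 libraries, and its groups still did not overlap (log2 fold change -2.34 with an SE of 0.43, adjusted p = 0.0101 by edgeR). Lamp3 also marks mature dendritic cells, which the CD45 gate should leave out. Lpcat1, the acyltransferase that remodels phosphatidylcholine into its disaturated surfactant form, was at 1387, 1298 and 1284 CPM in sgNeo and at 207, 127 and 204 CPM in sgLkb1. Its log2 fold change was -2.89 (SE 0.23, edgeR adjusted p = 0.000544), a 7.39-fold fall and the third greatest of the 8.

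**Figure D1:**
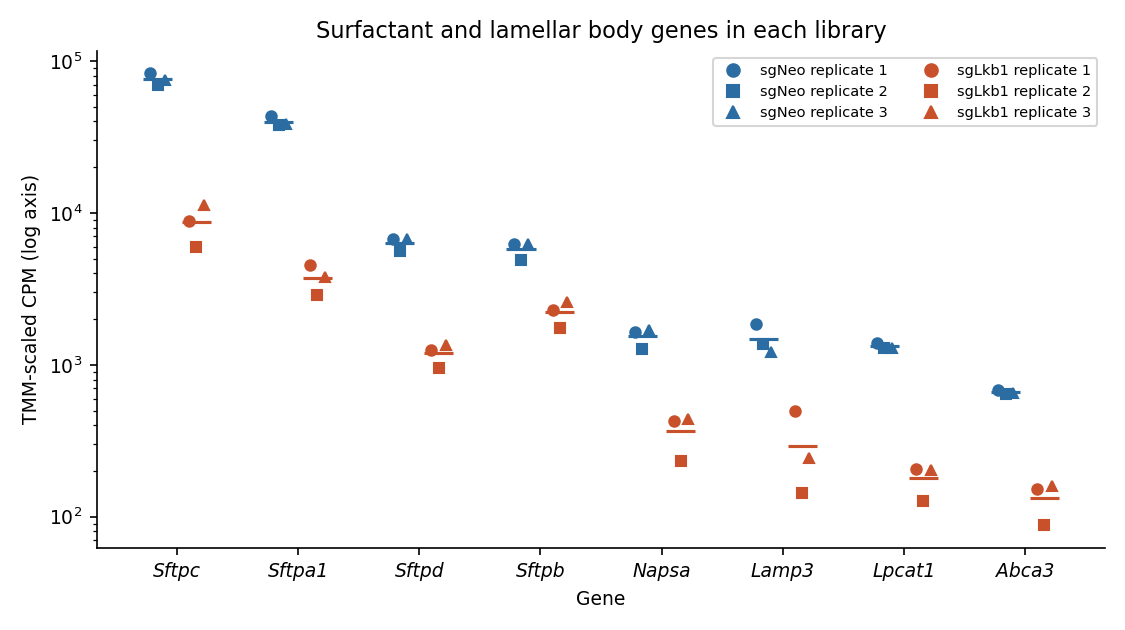
Level of each gene in each library in TMM-scaled CPM on a log axis, with symbols for replicates, blue for sgNeo and orange for sgLkb1, and bars at the group means. Every orange symbol lies below every blue symbol of the same gene, the gap is narrowest for Sftpb, and replicate 2 is the lowest orange symbol throughout.

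All 8 genes passed the test as lower in sgLkb1, where 8.60% of the 15978 tested genes did and 7.05% were called higher. Among genes with a mean of at least 100 CPM, as these are, 11.5% were called lower. A fall of at least 1 on the log2 scale, which all 8 showed, was called for 5.88% of tested genes and for 7.03% of those at 100 CPM or more. The groups did not overlap for any of the 8, and 20.3% of all tested genes, and 20.9% of the abundant ones, had every sgLkb1 library below every sgNeo library. The median log2 fold change was -2.38 over the 8 and 0.02 over all tested genes. All 8 kept the call in each of the 15 other fits tried, 6 of which dropped a library, and the adjusted p was at most 0.034 (Lamp3 without sgLkb1 replicate 3). In those 6 fits the log2 fold change ranged from -3.37 to -2.88 for Sftpc, from -3.56 to -3.24 for Sftpa1, from -1.53 to -1.21 for Sftpb and from -2.92 to -1.99 for Lamp3.

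The 8 genes took a large share of the sequencing in control tumours. Together they held 12.5, 11.6 and 12.5% of all counts in sgNeo, by replicate number, and 1.79, 1.35 and 2.36% in sgLkb1. The mean share was 12.2 ± 0.49% in sgNeo and 1.83 ± 0.51% in sgLkb1 (SD, n = 3; exact two-sided permutation p = 0.10, the smallest that 3 libraries against 3 allow). Sftpc alone took 6.96 ± 0.31% and 0.951 ± 0.339%, and Sftpa1 3.66 ± 0.066% and 0.402 ± 0.070%. Because so large a share can shift the scaling of other genes, the libraries were also scaled with the 8 genes left out, and each of the 8 was still called lower.

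The mixture of surfactant transcripts changed along with their amount. Ratios of counts within a library do not depend on scaling between libraries, and each gene was therefore set against Sftpc in its own library. The log2 ratio of Sftpb to Sftpc was -3.72, -3.82 and -3.58 in sgNeo and -1.94, -1.77 and -2.11 in sgLkb1, a rise of 1.77. Sftpb thus gained on Sftpc in every sgLkb1 library, by far more than the spread within a group. The ratio to Sftpc rose by 1.05 for Napsa, 0.81 for Abca3 and 0.75 for Sftpd, again with no overlap of the groups. Set against the mean of the other 7 genes instead, the differences were 0.49, 0.21 and 0.14, and the Sftpd groups then overlapped. For Lamp3 and Lpcat1 the difference was 0.67 and 0.25 and the groups overlapped, but against the other 7 genes Lpcat1 was lower, by a difference of -0.43 with no overlap. The ratio of Sftpa1 to Sftpc was lower by a mean difference of -0.27, with groups that were separate but nearly touching, at -0.97 for the lowest sgNeo library and -0.98 for the highest sgLkb1 library. Over the 7 ratios the exact two-sided permutation p was 0.10 for the 5 without overlap, 0.20 for the other two, and 0.14 and 0.20 after Benjamini-Hochberg adjustment, so that none could pass with 3 libraries a group.

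As a share of the counts of the 8 genes, Sftpb went from 4.37 ± 0.38% in sgNeo to 13.4 ± 0.92% in sgLkb1 (SD, n = 3). Sftpd went from 4.76 ± 0.29% to 7.18 ± 0.63%. Sftpa1 went the other way, from 30.0 ± 0.81% to 22.5 ± 3.20%. Sftpc was at 57.1 ± 0.25% and 51.3 ± 4.24%, with sgLkb1 replicate 3, at 56.2%, close to the control level.

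**Figure D2:**
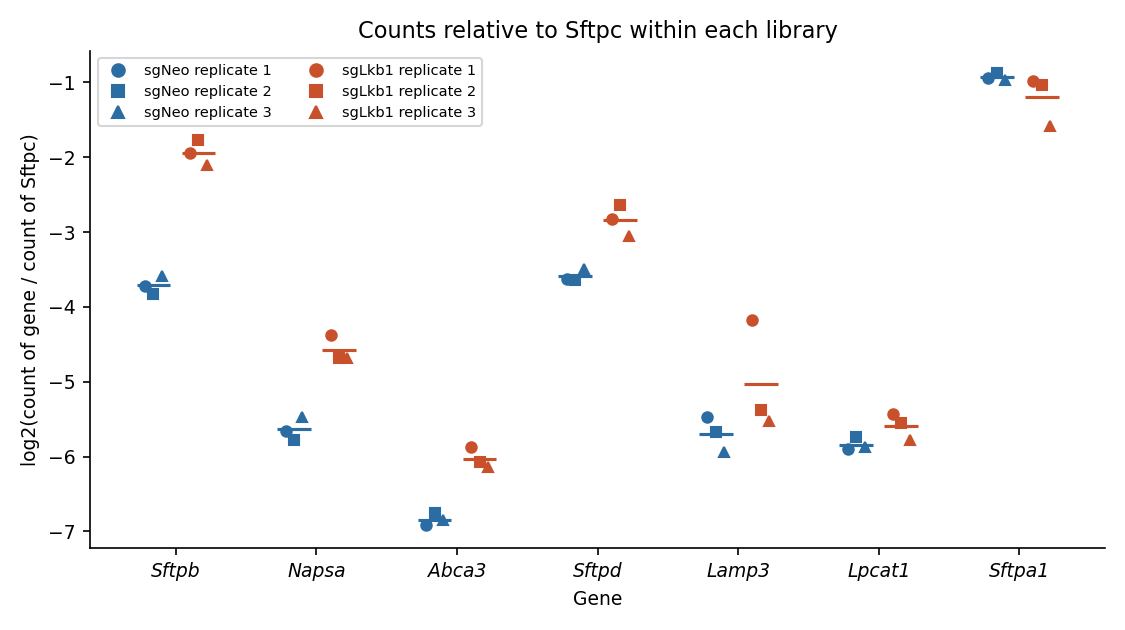
Log2 ratio of the count of each gene to the count of Sftpc in the same library, with bars at group means, symbols for replicates, blue for sgNeo and orange for sgLkb1. Orange lies above blue for Sftpb, Napsa, Abca3 and Sftpd, the groups overlap for Lamp3 and Lpcat1, and the Sftpa1 groups nearly touch.

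Per kilobase of exon, Sftpc had the highest level in both groups and Abca3 the lowest. In sgNeo the order was Sftpc at 73435 ± 6512, Sftpa1 at 13939 ± 1038, Sftpb at 2959 ± 402, Sftpd at 2619 ± 268, Napsa at 579 ± 88.1, Lamp3 at 442 ± 101, Lpcat1 at 286 ± 12.1 and Abca3 at 70.4 ± 2.45 CPM per kb (SD, n = 3). The ranges of Sftpb and Sftpd overlapped, as did those of Napsa and Lamp3. Within each sgNeo library, though, Sftpb was above Sftpd and Napsa above Lamp3. In sgLkb1 the order was the same, but the spacing was not. Sftpa1, at 1302 ± 283 CPM per kb, now overlapped Sftpb, at 1128 ± 222 CPM per kb, while Sftpb stood clear of Sftpd, at 491 ± 85.5 CPM per kb. In sgLkb1 replicate 3 Sftpa1 was slightly below Sftpb (1316 and 1323 CPM per kb), and in replicates 1 and 2 it was above. Lamp3, at 87.3 ± 53.8 CPM per kb, overlapped both Napsa, at 138 ± 44.1, and Lpcat1, at 38.6 ± 9.82. Within each sgLkb1 library Lamp3 was still below Napsa and above Lpcat1. Sftpa1 had been well above Sftpb in control tumours.

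The 8 genes also moved partly together between libraries of one genotype. Replicate 2 was the lowest sgLkb1 library for all 8 and the lowest sgNeo library for 6. No gene was highest in replicate 2 of either group. The highest sgLkb1 library was replicate 1 for 3 genes and replicate 3 for 5. In sgNeo replicate 3, Sftpb, Sftpd and Napsa lay above their group mean of log2 CPM and the others below. How many of all tested genes were lowest in replicate 2 was not counted. In sgLkb1 the coefficient of variation ran from 17.4% for Sftpd and 19.7% for Sftpb to 61.7% for Lamp3, and in sgNeo from 3.48% for Abca3 and 4.23% for Lpcat1 to 22.8% for Lamp3. Each of the 8 varied more in sgLkb1 than in sgNeo by this measure, a difference that was not tested. Over the 6 libraries, the correlation of each gene's log2 CPM with the mean of the other 7 was 0.954 for Lamp3 and 0.987 to 0.998 for the others. These values mostly reflect the step between the genotypes that all 8 share.

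The 8 genes were set beside relatives listed by protein family or by shared enzyme name, which were called in both directions. Of 28 tested relatives 5 were lower (17.9%) and 5 higher, and 18 did not pass, with a median log2 fold change of 0.19. Over all tested genes 8.60% were lower and 7.05% higher. The lower count was 1 without sgLkb1 replicate 2, 2 without sgNeo replicate 1 or 2, and 4 or 5 without another library. Of all tested genes 5.24% were lower without sgLkb1 replicate 2, and 5.06% and 4.56% without sgNeo replicate 1 and 2. The higher count was 1 without sgNeo replicate 1 or 2, 5 without sgLkb1 replicate 1, and 3 without another library. No other gene listed under LPCAT or LAMP passed beside Lpcat1 and Lamp3. Lpcat3, listed here by its enzyme name, adds polyunsaturated chains to phospholipid. It was at 142 ± 15.6 and 104 ± 11.1 CPM in sgNeo and sgLkb1, and Lpcat4 at 77.4 ± 14.4 and 79.1 ± 18.9 CPM. The general lysosomal membrane proteins Lamp1 and Lamp2 were at 1084 ± 14.4 and 627 ± 98.2 CPM in sgNeo and at 851 ± 36.6 and 758 ± 244 CPM in sgLkb1. Lpcat2, at 0.40 ± 0.14 and 1.45 ± 0.34 CPM, had a log2 fold change of 1.84 (edgeR adjusted p = 0.058) and passed with DESeq2 and with a filter of 1 CPM. Cd68, a macrophage LAMP relative, had one of 0.78 (edgeR adjusted p = 0.093) and passed with DESeq2, without a filter and without sgLkb1 replicate 2, among other fits.

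Among the aspartic proteases related to Napsa, cathepsin E (Ctse), an enzyme typical of gastric epithelium, rose from 168 ± 89.9 to 595 ± 98.8 CPM (log2 fold change 1.82 with an SE of 0.35, adjusted p = 0.012 by edgeR). The call was lost without sgNeo replicate 2 (adjusted p = 0.054). Bace1 also rose, from 19.6 ± 0.68 to 43.1 ± 17.4 CPM, which no longer passed without any sgNeo library or sgLkb1 replicate 2 (adjusted p up to 0.088). Ctsd, the main lysosomal aspartic protease, did not pass, at 1076 ± 205 and 1345 ± 61.5 CPM. Among proteins with saposin domains, Psap, the precursor of lysosomal saposins, rose from 222 ± 34.5 to 387 ± 53.8 CPM, lost in 4 of 6 such fits (sgNeo replicate 1 or 2 or sgLkb1 replicate 2 or 3; adjusted p up to 0.11). Smpd1, the acid sphingomyelinase, fell from 100 ± 14.6 to 51.0 ± 9.27 CPM, a call lost without sgLkb1 replicate 2 (adjusted p = 0.052).

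The BRICHOS domain of SP-C is shared with the ITM2 proteins and the gastrokines. Itm2b, the most abundant, was at 870 ± 52.4 and 875 ± 85.7 CPM, and Itm2c fell from 233 ± 12.1 to 126 ± 20.4 CPM (log2 fold change -0.88 with an SE of 0.17, adjusted p = 0.011 by edgeR). Gkn1, a gastric peptide, had 16.04 ± 26.2 and 82.0 ± 33.5 CPM and a log2 fold change of 2.35 with an adjusted p of 0.28 by edgeR. It passed without sgNeo replicate 3 (6.52, adjusted p = 0.0060), with no filter (2.39, 0.00052) and with limma-voom (4.99, 0.046). In the ABCA family Abca5 rose from 9.66 ± 2.32 to 22.1 ± 5.90 CPM, while Abca4 and Abca17, both under 3 CPM, fell. These calls were lost in 3 of 6 fits for Abca5 (sgNeo replicate 1 or 3 or sgLkb1 replicate 2), 5 of 6 for Abca4 (all but sgLkb1 replicate 3) and 3 of 6 for Abca17 (sgNeo replicate 1 or 2 or sgLkb1 replicate 2), with adjusted p up to 0.095. Of the collectins, Mbl1, a mannose-binding lectin, fell from 3.15 ± 0.49 to 0.31 ± 0.30 CPM, and Colec12 rose from 2.59 ± 0.35 to 9.03 ± 5.28 CPM. Mbl1 lost its call in 3 of 6 fits (sgNeo replicate 1 or 2 or sgLkb1 replicate 2; adjusted p up to 0.073) and Colec12 in 4 (sgNeo replicate 1, 2 or 3 or sgLkb1 replicate 3; up to 0.10).

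**Figure D3:**
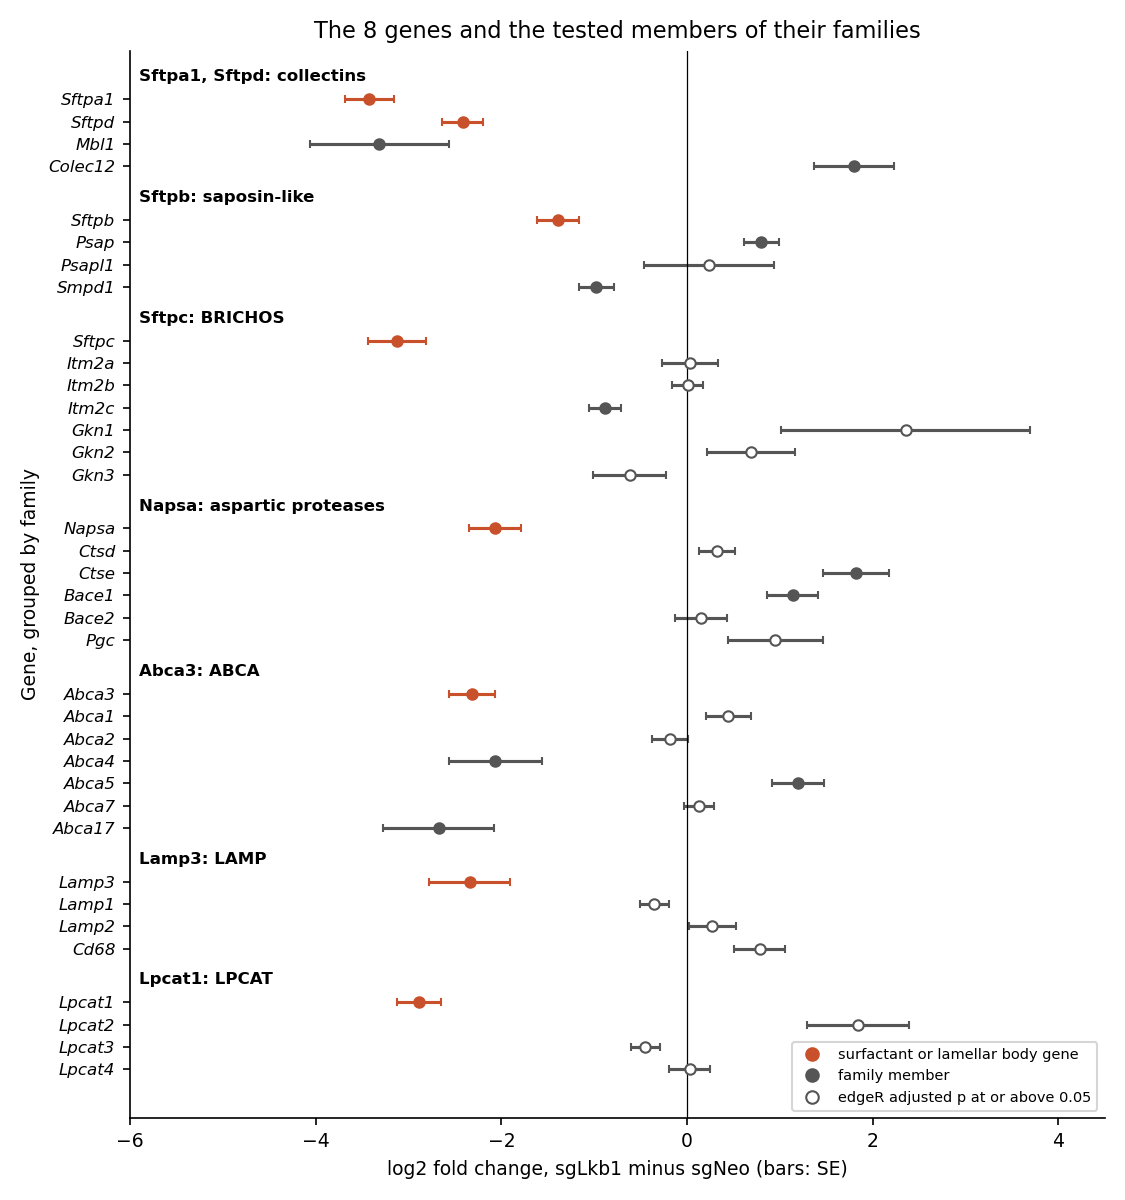
Log2 fold change (sgLkb1 minus sgNeo, bars show the SE) of the 8 genes in orange and of the tested genes listed with their families in grey, with open symbols where the edgeR adjusted p was 0.05 or more. The orange points all lie between -3.42 and -1.39, while the grey points fall on both sides of 0.

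The nearest tested genes on either side of the 8 were examined after their values had been seen. There were 15 such protein-coding genes, 1 on each side of each gene and Mbl1 counted once. Genes that were not tested were passed over, so the distances ran from 0.715 to 2513 kb and not all 15 are adjacent. Of the 15, 6 were lower, against 8.60% of all tested genes. The highest log2 fold change was 0.24 (Hira, 683 kb from Lamp3, edgeR adjusted p = 0.63). The lower count was 3 without sgNeo replicate 1 or 2 and 4 to 7 in the other fits that left out a library. Lgi3, 6.60 kb from Sftpc and itself on the list of type 2 cell markers, fell from 750 ± 70.5 to 78.5 ± 25.8 CPM (log2 fold change -3.26 with an SE of 0.27, adjusted p = 0.000544 by edgeR), close to the fall of Sftpc itself. Bmp1, 0.715 kb from Sftpc on its other side, had 139 ± 7.12 CPM in sgNeo and 79.2 ± 30.0 CPM in sgLkb1 (edgeR adjusted p = 0.092 with all libraries). Of the 6 fits that dropped a library it passed in the one without sgLkb1 replicate 1. Mat1a, 7.37 kb from Sftpa1, fell from 30.7 ± 3.37 to 8.43 ± 0.95 CPM, and Mbl1 lies between Sftpa1 and Sftpd. Abca17 lies 0.882 kb from Abca3. B3gnt5, 53.8 kb from Lamp3, fell from 11.1 ± 2.37 to 2.62 ± 1.75 CPM and lost its call in 4 of 6 fits (sgNeo replicate 1, 2 or 3 or sgLkb1 replicate 3; adjusted p up to 0.11). The neighbours of Sftpb, Usp39 and Atoh8, did not pass (log2 fold changes -0.14 and -0.01). Several of these neighbours are at a small fraction of the level of the surfactant gene beside them, and whether reads running on from that gene were counted there was not tested.

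Other markers of type 2 cells fell to a like degree. Of 13 such genes 12 fell and 1 rose, against 8.60% lower and 7.05% higher of all tested genes, and the median of their log2 fold changes was -2.21. Lyz1 and Lyz2, lysozymes of type 2 cells and macrophages, fell from 680 ± 182 to 29.5 ± 13.6 CPM and from 30960 ± 6298 to 2733 ± 966 CPM. Their sequences are near-identical, so the split of reads between them is uncertain. Lcn2, a siderophore-binding lipocalin, fell from 1252 ± 190 to 279 ± 50.3 CPM. The exception was Il33, an alarmin cytokine of type 2 cells, which rose from 415 ± 82.9 to 2097 ± 1112 CPM (log2 fold change 2.34 with an SE of 0.37, adjusted p = 0.0055 by edgeR), with adjusted p up to 0.033 when a library was left out.

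Of 26 genes of surfactant lipid synthesis, a list that also holds regulators and carriers such as Srebf1, Insig1 and Fabp5, 14 fell, 1 rose and 11 did not pass. Over all tested genes 8.60% were lower and 7.05% higher. The list's median log2 fold change was -0.77. Without sgNeo replicate 1 or sgLkb1 replicate 2, 9 fell, where 5.06% and 5.24% of all tested genes were lower. Without sgNeo replicate 2, 8 fell, where 4.56% of all tested genes were lower. Pcyt1a, which catalyses the rate-limiting step of phosphatidylcholine synthesis, fell from 70.2 ± 4.21 to 21.4 ± 2.72 CPM (log2 fold change -1.71 with an SE of 0.16, adjusted p = 0.000765 by edgeR). Elovl1, a fatty acid elongase, fell from 2159 ± 321 to 487 ± 106 CPM. Acly and Acaca, which supply citrate-derived acetyl-CoA and malonyl-CoA for fatty acid synthesis, fell from 602 ± 17.5 to 226 ± 35.4 CPM and from 50.8 ± 3.05 to 16.1 ± 1.99 CPM. Lpgat1, an acyltransferase, rose from 53.5 ± 9.17 to 89.4 ± 13.5 CPM, but did not pass without any sgNeo library or sgLkb1 replicate 2 (edgeR adjusted p up to 0.098).

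Of 20 genes of surfactant processing and lamellar body traffic 5 fell and 15 did not pass, against 8.60% of all tested genes lower, and their median log2 fold change was -0.31. Without sgNeo replicate 2, 3 fell, where 4.56% of all tested genes were lower. RLE scaling, upper-quartile scaling, a filter of 1 CPM and DESeq2 each called 1 gene of this list higher. Slc34a2, the phosphate transporter of the type 2 cell surface, fell from 5925 ± 414 to 1068 ± 319 CPM (log2 fold change -2.47 with an SE of 0.27, adjusted p = 0.00113 by edgeR). Pla2g1b, a secreted phospholipase, fell from 80.4 ± 10.0 to 13.9 ± 3.04 CPM. Adgrf5, the receptor GPR116 that limits the surfactant pool, fell from 273 ± 21.2 to 123 ± 13.9 CPM. Nedd4l, a ubiquitin ligase, fell from 98.6 ± 3.49 to 58.5 ± 4.32 CPM, with an adjusted p of 0.052 when sgNeo replicate 2 was dropped. Ctsh, the cathepsin that cleaves SP-B and SP-C precursors, was named after its values were seen. It fell from 2063 ± 131 to 1163 ± 335 CPM (log2 fold change -0.83 with an SE of 0.23, adjusted p = 0.047 by edgeR), and the call was lost in all fits that left out a library but the one without sgLkb1 replicate 1, with adjusted p up to 0.13. It was also lost with RLE scaling (0.059) and with scaling that left out the 8 genes (0.052) or the 10 most abundant genes (0.051). The 15 that did not pass had log2 fold changes from -0.86 (Lyst) to 0.50 (Anxa7). Of these, Anxa7 came nearest the threshold, with every sgLkb1 library higher (adjusted p = 0.056 by edgeR). It was at 143 to 166 CPM in sgNeo and at 209 to 241 CPM in sgLkb1. Hps4, a subunit of a complex that builds lysosome-related organelles, came near the threshold, at 15.8 ± 0.89 and 9.65 ± 1.73 CPM with every sgLkb1 library lower (adjusted p = 0.057 by edgeR).

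Of 17 genes listed as transcription factors and receptor of type 2 cells, 6 fell, 1 rose and 10 did not pass. Over all tested genes 8.60% were lower and 7.05% higher. The role of each listed gene in keeping type 2 identity was not tested. Without sgNeo replicate 1 or 2, 3 fell, where 5.06% and 4.56% of all tested genes were lower. Etv5, an ETS factor required in type 2 cells, fell from 637 ± 57.3 to 94.7 ± 16.7 CPM (log2 fold change -2.75 with an SE of 0.20, adjusted p = 0.00035 by edgeR). Fgfr2, a growth factor receptor upstream of it, fell from 416 ± 23.4 to 75.4 ± 29.1 CPM, and Cebpa, a factor of surfactant lipid genes, from 92.5 ± 6.77 to 27.7 ± 7.22 CPM. Nkx2-1 and Gata6 were named after their values were seen. Nkx2-1, whose core motif stands in the Sftpa1 and Sftpb windows, fell from 274 ± 18.9 to 129 ± 42.1 CPM (log2 fold change -1.09 with an SE of 0.25, adjusted p = 0.021 by edgeR), lost in 4 of 6 fits (without any sgNeo library or sgLkb1 replicate 3; adjusted p up to 0.069). Gata6 fell from 66.8 ± 6.08 to 35.1 ± 9.72 CPM, lost in 5 of 6 fits (all but sgLkb1 replicate 3; up to 0.096). Id2 fell from 372 ± 53.8 to 165 ± 49.7 CPM, lost without sgNeo replicate 1 or 2 (adjusted p up to 0.051). The forkhead factors Foxa1 and Foxa2 were at 96.1 ± 37.1 and 107 ± 7.33 CPM in sgNeo and at 118 ± 31.1 and 81.4 ± 37.8 CPM in sgLkb1, and neither passed. Klf5 rose from 183 ± 8.65 to 294 ± 13.8 CPM, and its adjusted p was up to 0.081 when sgNeo replicate 1 or 2 was dropped.

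**Figure D4:**
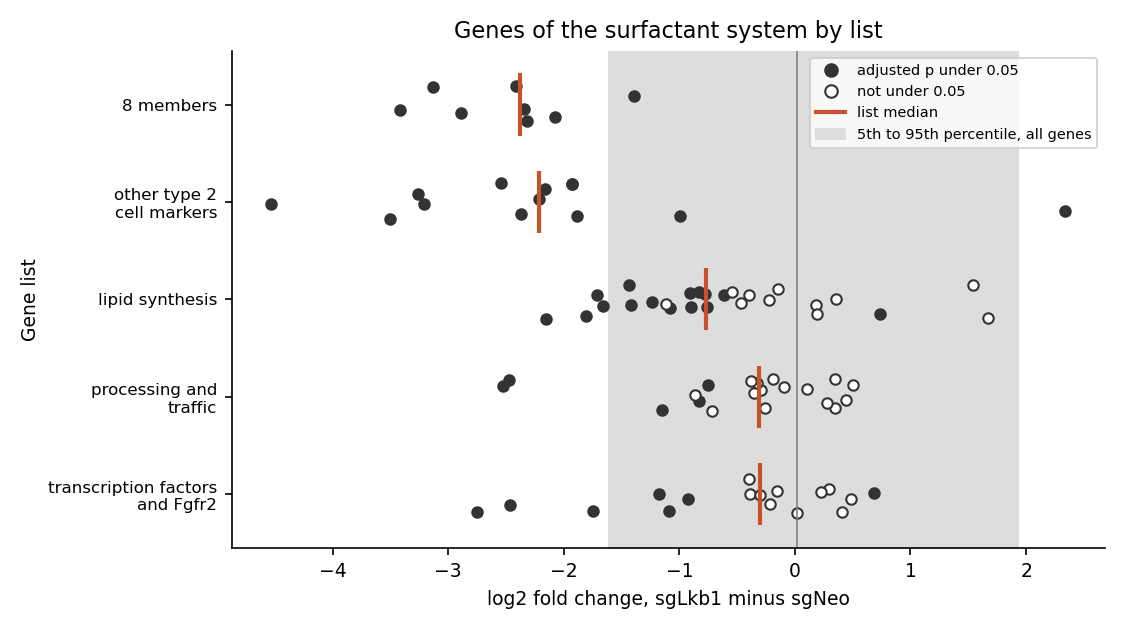
Log2 fold change of each tested gene by list, with filled symbols for an edgeR adjusted p under 0.05, an orange bar at the list median and grey shading from the 5th to the 95th percentile of all tested genes (-1.61 to 1.93). The 8 genes and the other type 2 markers lie mostly left of the shading, and the lipid, traffic and transcription factor lists mostly within it.

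The genes whose pattern over the 6 libraries was most like the mean of the 8 were Exosc7, Enpep, Chil1, Arhgap44, Sema4a and Muc1, out of 3821 others with a mean of at least 50 CPM, with Pearson correlations of 0.998 to 0.999. Chil1, a chitinase-like protein, fell from 6091 ± 587 to 1044 ± 341 CPM, and Muc1, a membrane mucin, from 2406 ± 141 to 1205 ± 110 CPM. Enpep, an aminopeptidase, fell from 346 ± 23.8 to 43.8 ± 16.1 CPM and Exosc7, an exosome subunit, from 194 ± 7.53 to 76.8 ± 13.1 CPM. With 6 libraries in 2 groups, such values describe a shared step and the low replicate 2.

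Markers of other cells were read beside these results. The counts called among them stand against 8.60% lower and 7.05% higher of all tested genes. The epithelial markers Epcam, Cdh1, Krt8 and Krt18 summed to 4758 to 5598 CPM in sgNeo and to 6697 to 7956 CPM in sgLkb1. Whether this sum follows the number of epithelial cells was not tested. Epcam alone of the 4 passed, as higher, and lost its call without sgNeo replicate 1 or 2. Of 7 type 1 cell markers 3 were lower (1 without sgNeo replicate 2) and 1, Cav1, was higher, a call lost without sgNeo replicate 2 or 3 or sgLkb1 replicate 2 or 3. Their sum was 3086 to 3724 CPM in sgNeo and 1647 to 2384 CPM in sgLkb1. The 4 club cell markers summed to 452 to 658 CPM and 228 to 677 CPM, with 1 lower, a call lost without any sgNeo library or sgLkb1 replicate 3, and the 4 ciliated cell markers to 45.2 to 50.1 CPM and 42.7 to 69.5 CPM, where the lowest edgeR adjusted p was 0.090. Leukocyte and macrophage markers other than Chil3 were low, with Ptprc, which encodes CD45, at 7.23 ± 2.10 and 6.70 ± 3.24 CPM. With Chil3 the list summed to 221 to 564 CPM in sgNeo and 239 to 1641 CPM in sgLkb1, highest in replicate 1. Chil3 made up most of it, at 194 to 525 CPM in sgNeo and 200 to 1574 CPM in sgLkb1. Of the 11 tested Mrc1 was higher and Cd79a lower, the latter call lost without sgNeo replicate 1 or 2 or sgLkb1 replicate 2 or 3.

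Sums of fibroblast markers were 28.7 to 80.5 CPM in sgNeo and 129 to 1087 CPM in sgLkb1, highest in sgLkb1 replicate 3. Of these 4 markers 3 were called higher, as were 7.05% of all tested genes. The count was 4 without sgLkb1 replicate 1 or 2 or with no filter on low counts. It was 1 without sgNeo replicate 1 or sgLkb1 replicate 3 or with limma-voom, and 0 without sgNeo replicate 2 or 3. Endothelial markers summed to 19.8 to 32.1 and 44.4 to 83.4 CPM, with 2 of 4 higher (1 without any one sgNeo library or sgLkb1 replicate 3). Mesothelial markers summed to 169 to 427 and 814 to 1277 CPM, nearly all of it Msln, with 1 of 2 tested higher (0 without sgNeo replicate 2). No listed marker was at 0 in all libraries. The 8 genes summed to 122413 to 144802 CPM in sgNeo and to 12121 to 20016 CPM in sgLkb1, and sgLkb1 replicate 3, with the most fibroblast RNA, had the highest of the latter. All 8 stayed lower without that library. The part of these cells in the result was not tested.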

How the data were processed

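Expected counts per gene for 6 libraries were deposited by the authors, made, per the submitters' processing notes, with STAR and RSEM on GRCm38, beside FastQC and DESeq2. Their versions, the annotation and the strand setting are details not given in the sources used here. Per the labels' protocols, lungs were digested, stained for CD45 and sorted, and Nextera XT was used for the libraries. RSEM divides reads that match several genes.

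Expected counts were rounded. Genes were kept with filterByExpr (15978 of 55487), scaled with TMM and tested with edgeR 4.0.16 in R 4.3.3 (quasi-likelihood, two-sided, genotype only, Benjamini-Hochberg over all tested genes, threshold 0.05). Values are CPM of scaled libraries, with mean ± SD of 3 libraries. A negative log2 fold change means lower in sgLkb1. Each SE was obtained from the fold change and the F statistic of its test (size of the change over the root of F). Levels per kb use merged exon lengths of GENCODE M21. All 8 gene identifiers matched that release.

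The 8 genes and all lists were chosen with earlier results of these data known, and no set test was made. The rule for naming took the 8 genes, the 4 genes with the lowest p in each list, any called against the majority of its list, and the 6 most alike by correlation of log2 CPM (prior count 2). Gkn2, Gkn3, Pgc and Abca1 also came under the rule and did not pass (log2 fold changes 0.69, -0.62, 0.95 and 0.44). Alternatives were RLE and upper-quartile scaling, scaling without the 8 genes or the 10 most abundant, no filter, a filter of 1 CPM in 3 libraries, DESeq2 1.42.0, voom of limma 3.58.1, a replicate block, and each library left out. The test was checked on simulated data. Genes named outside the rule (Ctsh, Nkx2-1, Gata6, Stk11, Hps4, Lyst, Anxa7, Foxa1, Foxa2, Itm2b and the chromosomal neighbours) were chosen after their values were seen. A neighbouring gene included in the count of neighbours is not reported here by name.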

Additional observations from a re-analysis of the deposited data

How the results depend on the processing

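Each of the 8 genes stayed lower and past the threshold in all 15 other fits, and the count of 8 did not change. Numbers of called genes over the other lists (42 lower and 8 higher of 103 tested) moved by more than 1.5 times in 3 fits. With a library left out the lower count ranged from 27 (without sgNeo replicate 2) to 47 (without sgLkb1 replicate 1), and the higher count from 2 (without sgNeo replicate 1 or 2) to 9, with 5 without sgLkb1 replicate 2. Fewer samples were fitted there.

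Set against the mean of the other 7 genes in place of Sftpc, the ratio of Lpcat1 was reversed, at -0.43. On that reference the differences were -1.03 for Sftpa1, 1.30 for Sftpb, 0.14 for Sftpd, whose groups then overlapped (exact permutation p = 0.50), 0.49 for Napsa, 0.21 for Abca3 and 0.04 for Lamp3. Uncalled genes near 0 changed sign. Over the 6 fits with a library left out, Psapl1 ranged from -0.30 to 1.37, Lamp2 from -0.0050 to 0.44 and Lpcat4 from -0.075 to 0.22. Psapl1 was at -0.13, -0.09 and -0.30 without sgNeo replicate 1, sgNeo replicate 2 and sgLkb1 replicate 2, Lamp2 at -0.0050 without sgLkb1 replicate 1, and Lpcat4 at -0.05, -0.04, -0.075 and -0.05 without sgNeo replicate 1, sgNeo replicate 2, sgLkb1 replicate 2 and sgLkb1 replicate 3. The cause was not tested.

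Libraries of both groups carry the same replicate numbers, and the main fit did not treat them as pairs. The deviations of same-numbered libraries correlated at 0.13, -0.02 and 0.11, and 4 of 6 libraries correlated best with their own number. The mitochondrial share fell from replicate 1 to 3 in both groups, at 8.25, 5.78 and 3.00% in sgNeo and 5.20, 3.93 and 2.75% in sgLkb1. What the shared numbers stand for was not tested. With the replicate block 1544 genes were lower and 1336 higher, against 1374 and 1127 without it, and the count of the 8 genes called was again 8. With the block 0 of the 4 fibroblast markers were called higher in place of 3, and 1 of the 4 endothelial markers in place of 2. The median log2 fold change of all tested genes stayed between -0.003 and 0.05 in all 15 fits. Over all tested genes DESeq2 called 1740 lower and 1819 higher, and a fit with no filter called 1523 and 1917. With a library left out, 728 (without sgNeo replicate 2) to 1414 (without sgLkb1 replicate 1) were lower and 488 (without sgNeo replicate 2) to 1340 (without sgLkb1 replicate 1) higher.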
